A study of Mus musculus with 31 samples.

Results

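The 47 genes described here carry a cell through its division cycle, and were chosen as the genes of the deposited count table whose symbol equals a name on a list of cell-cycle and proliferation genes. All 47 names were found among the 39179 genes of the table. They fall into 22 S-phase genes, 22 mitotic genes and 3 D-type cyclins. The S-phase genes were the E-type cyclins Ccne1 and Ccne2 with their kinase Cdk2, the origin licensing and firing genes Cdc6, Cdt1, Cdc45, Gins2 and Mcm2 to Mcm7, the replication clamp Pcna, the nucleotide synthesis genes Rrm1, Rrm2 and Tyms, the transcription factors E2f1, E2f2, E2f8 and Mybl2, and the DNA methylation maintenance gene Uhrf1. The mitotic genes were Mki67, Top2a, Ccna2, Ccnb1, Ccnb2, Cdk1, Cdc20, Foxm1, Aurka, Aurkb, Plk1, Bub1, Bub1b, Ttk, Kif11, Kif20a, Cenpe, Cenpf, Birc5, Tpx2, Nusap1 and Ube2c. The D-type cyclins were Ccnd1, Ccnd2 and Ccnd3.

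D-type cyclins bring a resting cell into the cycle by activating the kinases that phosphorylate RB, which releases E2F factors to switch on genes for origin licensing and DNA synthesis. A later wave of transcription, driven by B-MYB with the MuvB complex and by FOXM1, supplies the kinases, cyclins, spindle motors and checkpoint proteins of mitosis. In melanoma, as in other tumors, transcripts of both waves are used as a measure of how much of the tissue is cycling.

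RNA was sequenced from whole tumors and from cultures of a mouse melanoma line of C57BL/6 background that carries a conditional Nras LSL-G12D allele and Tyr::CreERT2, a Cre driven by the melanocyte promoter of Tyr. Parental cells were compared with GRKO cells, in which CRISPR ribonucleoproteins had been used against the glucocorticoid receptor gene Nr3c1 and single clones were grown. A clone can differ from its parental line in more than the edited gene, and clone and edit cannot be told apart here. Tumors grew in the skin of wild type C57BL/6 mice, so the host cells kept their glucocorticoid receptor. There were 4 groups of 5 tumors: parental and GRKO tumors under a control emollient cream, and parental and GRKO tumors under the glucocorticoid (GC) clobetasol propionate, a 0.05% ointment applied 3 times weekly. Cultures comprised 3 parental with the solvent DMSO, 2 parental with clobetasol, 3 GRKO with DMSO and 3 GRKO with clobetasol. The labels conflict on the culture dose, which is 10 µM in the treatment text and 1 µM in the library names. Nothing in the labels says that the cultures were grown separately, and their library names carry the same date. P-values over them therefore measure the spread between these samples, which may be technical.

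Total counts ran from 15528066 to 26386770 in the 20 tumors and from 14441166 to 22463188 in the 11 cultures. The lowest level that can be told from 0 was set at 3 counts, which is 0.112 to 0.220 CPM (counts scaled to library size) in the tumors and 0.136 to 0.207 CPM in the cultures. Such floors, and the standard errors (SE) below, cover counting error and the spread between libraries, and reads copied by PCR without molecular identifiers are not independent molecules. Levels are CPM after trimmed mean of M-values (TMM) scaling. Since only the 3′ end of a transcript was tagged, levels are compared between samples and not between genes.

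The labels were checked with Nr3c1 and with Tsc22d3, a direct target of the glucocorticoid receptor. Nr3c1 was at 33.2, 29.99 and 35.6 CPM in parental DMSO cultures and at 24.8, 21 and 16.4 CPM in GRKO DMSO cultures. In GRKO control tumors its level was 20.7, 27.3, 31.4, 31.8 and 23.5 CPM against 63.4, 57.1, 44.9, 55.6 and 52.2 CPM in parental control tumors. Nr3c1 transcript was lower but present in these GRKO samples, with a log2 fold change of -1.02 (SE 0.24, edgeR adjusted p = 0.0313) in control tumors, -0.67 (SE 0.22, edgeR adjusted p = 0.0840) in DMSO cultures and -0.95 (SE 0.24, edgeR adjusted p = 0.0384) in GC cultures. In GC tumors it was -0.02 (SE 0.24, edgeR adjusted p = 0.981). A 3′ tag outside the edited exon checks little of the edit itself. Tsc22d3 stood at 14.5, 10.6 and 15.4 CPM in parental DMSO cultures and at 116 and 114 CPM in parental GC cultures, against 15.9, 18.2 and 19.5 and 20.5, 14.5 and 16.98 CPM in the same GRKO pair. Parental cultures responded and GRKO cultures did not: the log2 fold change was 3.09 (SE 0.20, edgeR adjusted p = 2.28e-05) and -0.05 (SE 0.18, edgeR adjusted p = 0.984), and the difference between them was 3.14 (SE 0.27, edgeR adjusted p = 0.000332). In tumors, which hold host cells, Tsc22d3 rose with GC in both genotypes, by a log2 of 2.34 (SE 0.25, edgeR adjusted p = 1.61e-05) in parental and 1.77 (SE 0.25, edgeR adjusted p = 0.000403) in GRKO tumors. The difference, 0.57 (SE 0.34, edgeR adjusted p = 0.347), did not pass, so Tsc22d3 did not separate the genotypes of the tumors. Of 5 receptor targets 1, the metallothionein gene Mt1, was called in that difference, at 1.90 (SE 0.32, edgeR adjusted p = 0.0223). Mt1 was at 1802, 2883, 2100.0, 3315 and 2370.0 CPM in parental GC and 1003, 1397, 603, 1147 and 753 CPM in GRKO GC tumors, without overlap. Melanocyte markers were low: the sum over 8 of them (Mlana, Pmel, Tyr, Tyrp1, Dct, Mitf, Sox10 and S100b) was 10.2 to 12.7 CPM in parental DMSO and 3.10 to 4.78 CPM in GRKO DMSO cultures, where 5 and 6 of the 8 were at or under 3 counts over the whole group.

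Some libraries stood apart before any comparison. Long intergenic noncoding RNAs (lincRNAs) took 6.06, 2.35, 1.65, 2.26 and 0.815% of counts in parental control tumors 1 to 5, 2.21, 3.42, 1.85, 2.26 and 1.40% in parental GC tumors, 11.9, 9.34, 6.92, 0.735 and 16.7% in GRKO control tumors and 1.37, 3.41, 1.56, 7.12 and 1.99% in GRKO GC tumors. A single transcript, Gm42418, held 87.0% of all lincRNA counts. The share was over 5% in 6 tumors: parental control 1, GRKO control 1, 2, 3 and 5, and GRKO GC 4. The 4 such GRKO control tumors also had the fewest genes with at least 3 counts, 13020, 14388, 14616, 16238 and 13891 in GRKO control tumors 1 to 5 against 14747 to 16088 in the other 3 tumor groups. Parental cultures held 2.02% to 2.65% and GRKO cultures 2.81% to 4.62%, without overlap, so in cultures the share and the genotype cannot be told apart. Each tumor comparison was therefore also fitted with the lincRNA share as a covariate and without those 6 tumors, and each culture comparison with the covariate, all chosen after seeing the data. Without them 1 GRKO control tumor, replicate 4, is left, which is assumed to vary like the other groups. Mitochondrial transcripts took 0.587, 0.629, 0.755, 1.15 and 0.976% of counts in GRKO control tumors 1 to 5, below every other tumor, at 1.25% to 2.48%, and their part in the comparisons of this group was not tested. In both GC groups tumors 2 and 4 stood apart from 1, 3 and 5. In parental tumors their mitotic means, as given below, were 4.66 and 4.76 against 5.35, 5.42 and 5.16, and their TMM factors 0.914 and 0.938 against 1.11, 1.10 and 1.10. Mean chi-square per gene between replicates was 29.9 to 33.6 among tumors 1, 3 and 5 and 115.8 to 228.8 in pairs with 2 or 4. In GRKO tumors the mitotic means were 5.22 and 5.33 against 5.68, 5.69 and 5.91, and the TMM factors 0.998 and 0.975 against 1.098, 1.13 and 1.09. Chi-square there was 47.6 to 55.8 and 95.6 to 215.7. Fibroblast markers and Nr3c1 were also lowest in these 4 tumors of their groups. Whether a number marks tumors handled together is not in the labels. Correlations between tumors of the same number, and fits with the number as a block, are given below. Comparisons with a GC group were also fitted without tumors 2 and 4 of the parental GC group and without those of both GC groups, chosen after seeing the data. Among cultures, parental DMSO 2 and GRKO GC 3 were low in several mitotic genes, such as the mitotic kinase Cdk1, which was at 192, 30.8 and 254 CPM in parental DMSO, 382 and 174 CPM in parental GC, 279.5, 346 and 188 CPM in GRKO DMSO and 331, 124 and 45.2 CPM in GRKO GC cultures.

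A gene is said to have risen or fallen where edgeR's p, adjusted over all genes tested, was under 0.05 and the fold was at least 1.5. All 47 genes passed the filter on low counts in the tumors, where 15919 genes were tested, in the cultures, where 12525 were, and in the fit of all 31 libraries, where 16273 were. The strand used in counting is not stated. Exons on the opposite strand overlap those of Ccne2 (Ints8), Cdk2 (Pmel), Cdc45 (Ufd1), Mcm7 (Cops6, Ap4m1), Gins2 (Gse1), E2f8 (Gm2788), Ccna2 (Exosc9), Cdc20 (Elovl1), Kif20a (Cdc23), Nusap1 (Oip5), Ube2c (Tnnc2), Ccnd1 (LTO1), Ccnd2 (9330179D12Rik) and Ccnd3 (Bysl), and on the same strand those of Mcm7 (Mir25, Mir93), Top2a (Gm23451) and Foxm1 (Tex52), so their counts may include reads of those neighbours. Plk1, Cdt1, E2f1 and Mcm4 have no such neighbour.

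As class means, the S-phase and the mitotic genes were lower in the tumors than in the cultures, and lowest in the parental tumors given GC. The mean of log2(CPM + 1) over the 22 S-phase genes, on 1 scaling of all 31 libraries, was 4.85 (SD 0.11) in parental control, 4.47 (SD 0.15) in parental GC, 4.86 (SD 0.13) in GRKO control and 4.85 (SD 0.11) in GRKO GC tumors. Every parental GC tumor, at 4.30 to 4.66, lay below every tumor of the other 3 groups, at 4.68 to 5.05. In cultures the S-phase mean was 5.85 (SD 0.12) in parental DMSO, 5.98 (SD 0.06) in parental GC, 5.92 (SD 0.06) in GRKO DMSO and 5.80 (SD 0.16) in GRKO GC. Over the 22 mitotic genes it was 5.58 (SD 0.22), 5.07 (SD 0.34), 5.33 (SD 0.25) and 5.57 (SD 0.28) in the tumors in the same order. Mitotic means of the groups overlapped, with parental GC tumors at 4.66 to 5.42 and parental control tumors at 5.32 to 5.92. Cultures had mitotic means of 6.79 (SD 0.31), 7.02 (SD 0.14), 6.93 (SD 0.10) and 6.72 (SD 0.29). For the 3 D-type cyclins the tumor means were 8.47 (SD 0.23), 8.55 (SD 0.14), 9.15 (SD 0.34) and 8.46 (SD 0.14), highest in GRKO control tumors. Their culture means were 9.25 (SD 0.06), 9.45 (SD 0.03), 9.11 (SD 0.06) and 9.14 (SD 0.07). GRKO control tumors 1 and 2, at 9.68 and 9.30, lay above every GRKO culture, and 3, 4 and 5, at 8.91, 8.85 and 9.03, below every one. No test was made on these means.

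**Figure D1:**
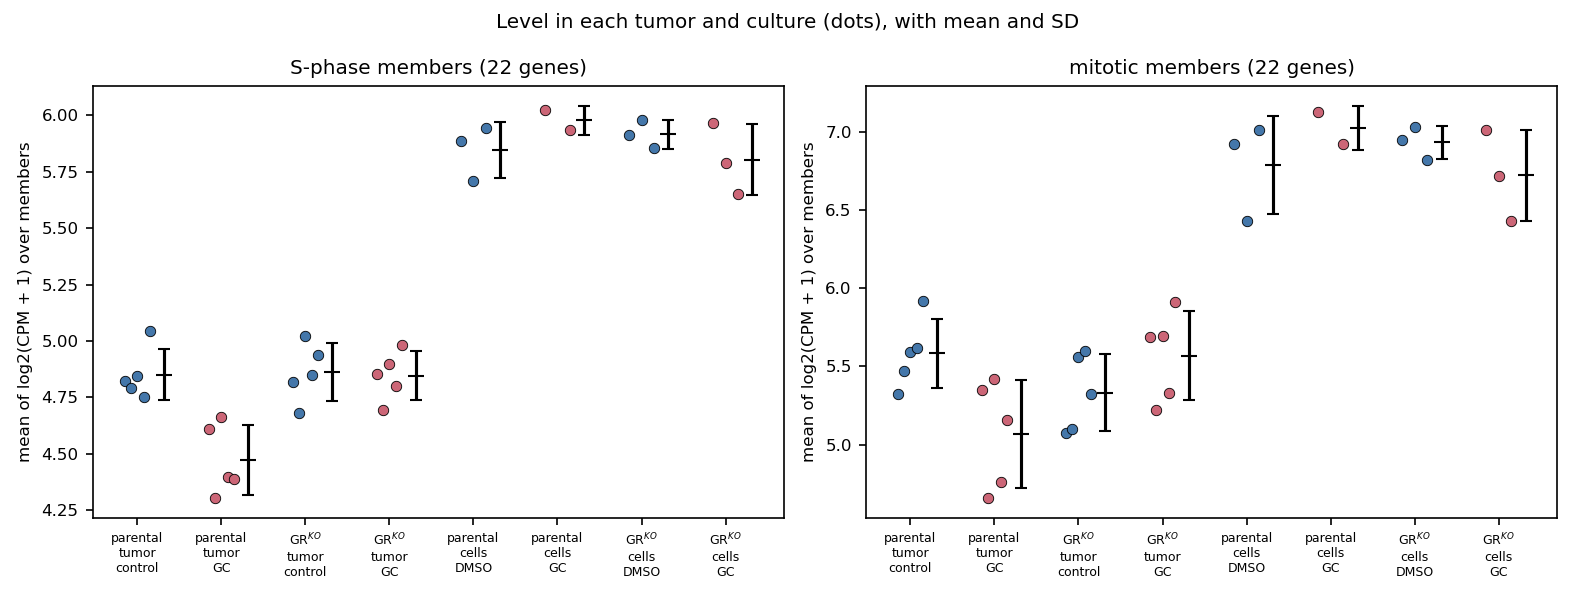
Mean of log2(CPM + 1) over the 22 S-phase genes (left) and the 22 mitotic genes (right) in each tumor and culture (dots), with mean and SD of each group, on 1 scaling of all 31 libraries. The highest tumor is at 5.05 and 5.92, and the lowest culture at 5.65 and 6.43.

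With glucocorticoid treatment of parental tumors most S-phase and mitotic genes among the 47 lay lower than in control tumors. The S-phase shift was not seen in 30 other S-phase genes, described below. Their summed level was 932.3 CPM (SD 102.5) in parental control and 991.0 CPM (SD 233.9) in parental GC tumors. For 30 other mitotic genes it was 1683 CPM (SD 173.7) and 1342 CPM (SD 136.3). The mitotic kinase gene Plk1 and the licensing factor gene Cdt1 fell. Of the 47 genes, 36 were lower and 11 higher in GC than in control tumors. The median log2 fold change was -0.49 over the 22 S-phase genes, 17 of them lower, and -0.65 over the 22 mitotic genes, 18 of them lower, while it was 0.00 over all 15919 genes tested. In bulk tissue, fewer cycling cells and less of these RNAs per cell cannot be told apart. No gene of the 47 rose (0 by edgeR, 0 by DESeq2) and 2 fell, against 0.433% and 0.345% of all genes tested. At an unadjusted p under 0.05 edgeR had 21 of the 47 genes, 10 S-phase and 11 mitotic, and 14.1% of all genes tested. Control and GC tumors did not overlap for 9 of the 47 genes, and for 4.21% of all genes tested. Without parental GC tumors 2 and 4, which left 3 GC tumors, the medians were -0.40 over S-phase, -0.45 over mitotic and -0.04 over all genes.

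Plk1, whose kinase drives entry into mitosis and spindle assembly, was at 259, 207, 290.2, 230.1 and 363 CPM in parental control tumors and at 149.7, 83.5, 157, 123 and 145 CPM in parental GC tumors. Every GC tumor lay below every control tumor. The log2 fold change was -1.04 (SE 0.21, edgeR adjusted p = 0.0136). Cdt1, which loads the replicative helicase onto origins, was at 80.6, 63.96, 99.7, 88 and 108 CPM in control and 46.5, 37.8, 61.8, 33.7 and 43.2 CPM in GC tumors, and these groups did not overlap either. Cdt1 changed by a log2 of -0.98 (SE 0.18, edgeR adjusted p = 0.00540). Without parental control tumor 5, which had the highest level of both genes, Plk1 was at -0.90 and no longer passed, leaving 1 gene; the log2 fold change of Cdt1 stayed between -1.12 and -0.89 as each tumor was left out in turn and passed each time. With the covariate for the lincRNA share both genes passed, at -1.04 for Plk1 and -0.98 for Cdt1, together with 3 more: the cyclin Ccnb2, the anaphase activator Cdc20 and the spindle checkpoint kinase Bub1b, the same 5 genes that DESeq2 called. Those 3 were chosen after their values were seen. Without the 6 tumors of high lincRNA share, Plk1 (-1.03) and Cdt1 (-0.99) both fell. In a fit of the parental tumors alone Cdt1, at -0.98, did not pass. Without parental GC tumors 2 and 4 no gene passed, at -0.84 (SE 0.22, edgeR adjusted p = 0.172) for Plk1 and -0.80 (SE 0.19, edgeR adjusted p = 0.111) for Cdt1. The smaller group and the levels of these 2 tumors cannot be told apart as the reason.

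**Figure D2:**
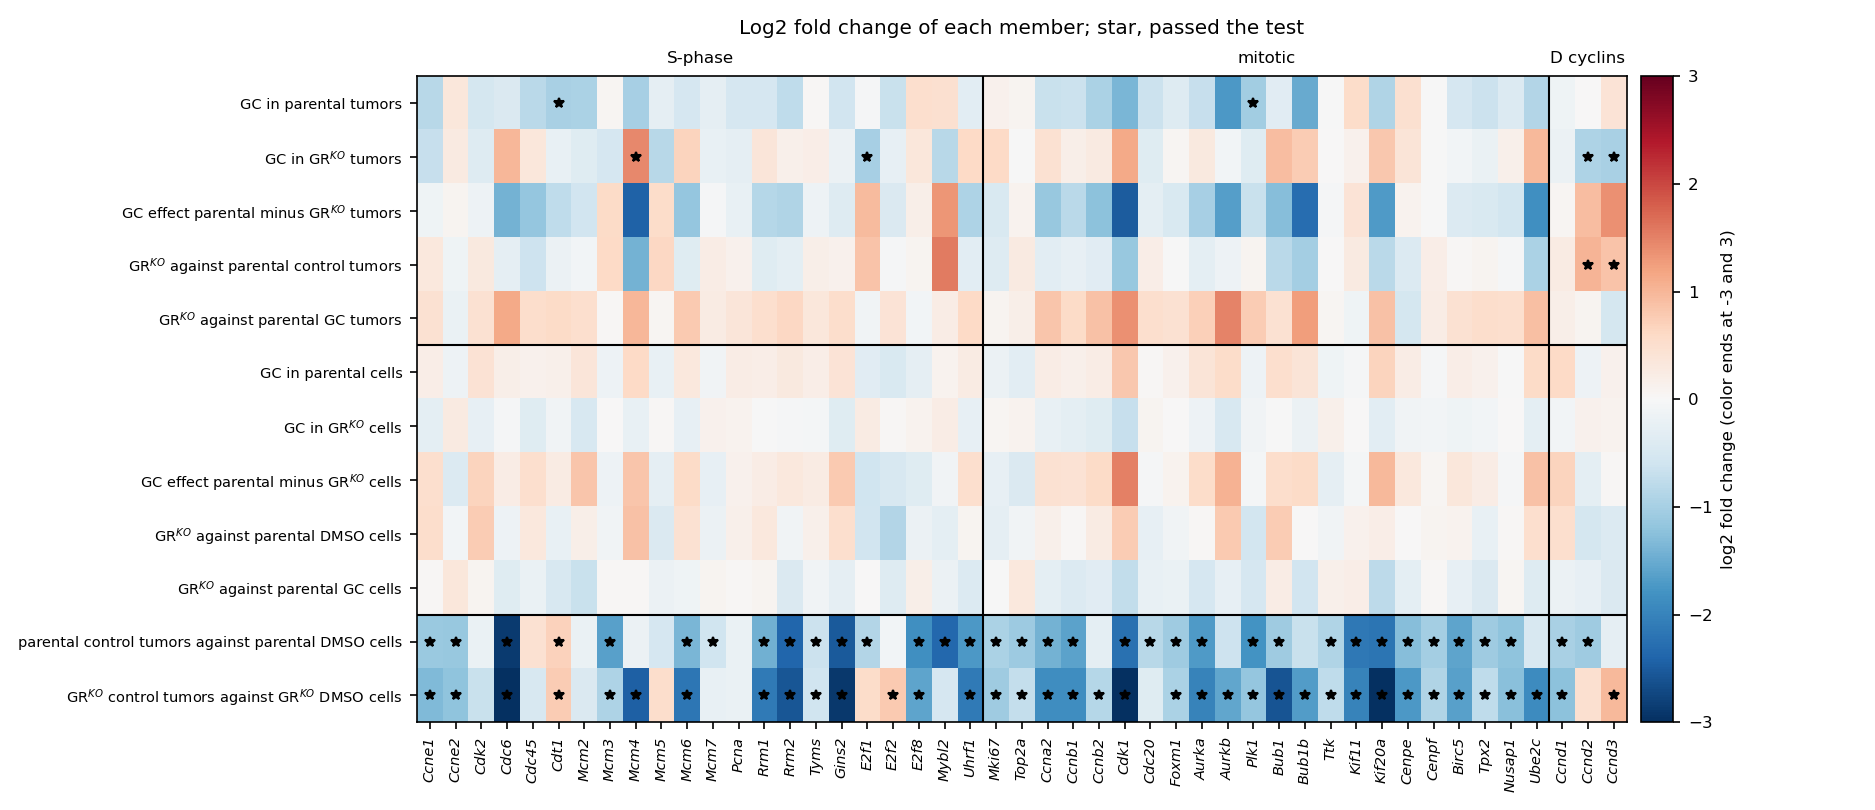
Log2 fold change, as color, of each of the 47 genes (columns, by class) in the comparisons of tumors and cultures (rows). A star marks a gene that was called, and the color scale is cut off at both ends. In parental tumors 36 of the 47 genes lay below 0 with GC, and in GRKO tumors 22 did.

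In GRKO tumors, where the melanoma cells but not the host cells were edited, GC treatment went with lower D-type cyclins Ccnd2 and Ccnd3 and lower E2f1, and with a higher level of the helicase subunit Mcm4. Of the 47 genes, 25 were higher and 22 lower. The median log2 fold change was -0.20 over the S-phase genes, 10 of 22 higher, and 0.16 over the mitotic genes, 15 of 22 higher, against 0.05 over all genes. Thus 1 gene rose and 3 fell, beside 2.71% and 3.71% of all genes tested, so the share of genes called here is of the size of the background. By edgeR 12 of the 47 had an unadjusted p under 0.05, against 24.5% of all genes. Control and GC tumors did not overlap for 2 of the 47 genes, and for 5.08% of all genes tested.

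Ccnd3, a D-type cyclin, was at 858, 496, 425, 384 and 389 CPM in GRKO control tumors and at 288, 360.5, 209, 249.8 and 195 CPM in GRKO GC tumors. All 5 treated tumors were below all 5 controls, and control tumor 1 was far above the other controls. For Ccnd3 the log2 fold change was -0.97 (SE 0.23, edgeR adjusted p = 0.0146). Ccnd2, its relative, stood at 611, 672, 402, 347 and 407 CPM in control and at 241, 287, 279.8, 277 and 194 CPM in GC tumors, again without overlap. Ccnd2 changed by a log2 of -0.93 (SE 0.23, edgeR adjusted p = 0.0208). The E2F factor gene E2f1 was at 323, 192, 201, 97.3 and 172 CPM and 98.05, 101, 77.7, 138 and 82.7 CPM in control and GC tumors. These groups overlapped because control tumor 4 was low. For E2f1 the log2 fold change was -0.98 (SE 0.26, edgeR adjusted p = 0.0286). Mcm4 was low, at 6.89, 6.09, 9.98, 11.2 and 3.26 CPM in control and 15.1, 8.62, 28.6, 8.90 and 40.5 CPM in GC tumors, with GC tumors 2 and 4 inside the control range. For Mcm4 the log2 fold change was 1.44 (SE 0.41, edgeR adjusted p = 0.0367).

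These 4 calls rested on few tumors. Without GRKO control tumor 1, 0 genes passed in edgeR, and E2f1 was at -0.73, Ccnd2 at -0.84, Ccnd3 at -0.70 and Mcm4 at 1.41. Without GRKO control tumor 2, 1 gene passed, with Ccnd2 at -0.79, E2f1 at -0.99 and Mcm4 at 1.37, and without GRKO control tumor 5 Mcm4, at 1.25, did not. Leaving out GRKO GC tumor 1 left 2 genes (E2f1 at -0.98 and Mcm4 at 1.53 did not pass), leaving out GC tumor 3 left 1 (E2f1 at -0.90, Mcm4 at 1.29 and Ccnd3 at -0.90 did not), and leaving out GC tumor 5 left 1 (E2f1 at -0.92, Ccnd2 at -0.85 and Mcm4 at 1.03 did not). Without GRKO control tumor 4, the tumor with the lowest lincRNA share of its group, the count rose to 9. Without GC tumors 2 and 4 of both genotypes it rose to 11, with 7 higher and 4 lower, beside 1080 and 1282 of all genes, and the S-phase and mitotic medians were -0.04 and 0.31; all 4 genes passed. With the lincRNA share as a covariate 0 genes passed, at -0.69 for E2f1, -0.67 for Ccnd2, -0.82 for Ccnd3 and 1.08 for Mcm4. Without the 6 tumors of high share 0 passed, at -0.12, -0.48, -0.55 and 1.04. In a fit of the GRKO tumors alone 1 gene passed, Ccnd2, and by library size alone 5 did: Ccnd2, Ccnd3, Mcm4 and, higher with GC, Mki67 and Cenpe, while E2f1, at -0.68, did not. Cenpe was named after its values were seen. That scaling moved the median of all genes from 0.05 to 0.31 and the split of all calls from 431 higher and 591 lower to 919 and 248. On it the S-phase median was 0.11, above 0 but below the median of all genes. What part the lincRNA share has in these differences was not tested beyond these fits.

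Whether GC acted differently in parental and GRKO tumors was tested as the difference of the log2 fold changes, parental minus GRKO. By edgeR 0 of the 47 genes passed in either direction, against 0.126% of all genes higher and 0.0691% lower. At an unadjusted p under 0.05 edgeR had 22 of the 47 and 20.1% of all genes, and DESeq2 called 4: Bub1b, Ccnd3, Mcm4 and Mcm6, named after their values were seen. The difference was below 0 for 35 genes and above 0 for 12, with a median of -0.30 over S-phase genes, -0.61 over mitotic genes and -0.04 over all genes. Library size alone moved these medians to -0.63, -0.90 and -0.33, with 3 of all genes higher and 7 lower in place of 20 and 11. For Plk1 the difference was -0.67 (SE 0.29, edgeR adjusted p = 0.203), and for Cdt1 it was -0.75 (SE 0.25, edgeR adjusted p = 0.119). So the fall of these genes in parental tumors was not shown to differ from the change in GRKO tumors, where Plk1 was at 291, 288, 255, 250.4 and 348 CPM under control cream and at 181, 236, 150.3, 273 and 275 CPM under GC, and Cdt1 at 74.1, 75.3, 85.8, 68.9 and 85.5 and 66.3, 64.4, 64.1, 68.3 and 70.4 CPM. Those groups overlapped for Plk1 and for Cdt1. The smallest adjusted p was that of Ccnd3, with a difference of 1.38 (SE 0.32, edgeR adjusted p = 0.0631). For the other genes called in GRKO tumors it was -2.43 (SE 0.58, edgeR adjusted p = 0.0725) for Mcm4, 0.93 (SE 0.33, edgeR adjusted p = 0.136) for Ccnd2 and 0.95 (SE 0.37, edgeR adjusted p = 0.166) for E2f1. The count rose to 9 without GRKO control tumor 4 and to 2 without GRKO GC tumor 2. With the replicate number as a block it rose to 2 (Bub1b and Ccnd3). It was 0 with the lincRNA covariate, 0 without the 6 tumors and 0 without tumors 2 and 4 of both GC groups, where the medians were -0.22 over S-phase, -0.58 over mitotic and -0.05 over all genes.

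Between the genotypes under control cream, the D-type cyclins Ccnd2 and Ccnd3 were higher in GRKO tumors. Ccnd2 was at 298, 256, 202, 275 and 178 CPM in parental control tumors, all below the GRKO control values given above. Its log2 fold change, GRKO over parental, was 1.01 (SE 0.23, edgeR adjusted p = 0.0289). Ccnd3 was at 297, 289, 258, 322 and 248 CPM in parental control tumors, again all below the GRKO values, with a log2 fold change of 0.85 (SE 0.23, edgeR adjusted p = 0.0465). Thus 2 of 47 genes rose and 0 fell (0 by edgeR and, by DESeq2, 5 rose and 1 fell), beside 1.26% and 0.986% of all genes tested. At an unadjusted p under 0.05 edgeR had 11 of the 47 and 19.98% of all genes. The 2 control groups did not overlap for 2 of the 47 genes, and for 3.92% of all genes tested. Of the 47, 22 were higher and 25 lower in GRKO tumors. The median was 0.03 over S-phase genes, -0.21 over mitotic genes and -0.04 over all genes, and by library size alone the S-phase median was -0.23 while that of all genes was -0.30, with all calls split into 57 higher and 273 lower in place of 201 and 157.

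Both calls depended on single tumors. By edgeR 0 of the 47 passed without parental control tumor 2 (Ccnd2 at 1.03, Ccnd3 at 0.86), parental control 3 (0.95, 0.82), parental control 4 (1.07, 0.91), parental control 5 (0.92, 0.81), GRKO control 1 (0.92, 0.58) or GRKO control 2 (0.87, 0.86). Then 1 gene passed without parental control 1 or GRKO control 5, where Ccnd3 (0.87 and 0.94) did not, and Ccnd3, at 0.91, did not pass without GRKO control 3. Without GRKO control 4 the count rose to 8. With the lincRNA covariate 0 genes passed (Ccnd2 at 0.72, Ccnd3 at 0.68), and without the 6 tumors of high lincRNA share 0 passed (0.62 and 0.47). DESeq2 called 6, adding E2f1, Mcm3, Mybl2 and, lower in GRKO tumors, Mcm4, named after their values were seen. By library size alone 1 gene passed, the kinetochore motor Cenpe, which was lower in GRKO tumors, and Ccnd2 (0.71) and Ccnd3 (0.55) did not. Without the filter on low counts (Ccnd3 at 0.85), and in a fit of these 10 tumors alone (0.86), only Ccnd2 passed.

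Between GRKO and parental tumors under GC, 41 of the 47 genes were higher in GRKO tumors and 6 lower. The parental GC tumors are those of the first comparison, so these differences share samples with it. By edgeR 0 of 47 genes passed in either direction, against 0.195% of all genes higher and 0.44% lower. At an unadjusted p under 0.05 edgeR had 21 of the 47 and 11.4% of all genes, and DESeq2 called 1, Plk1. The median was 0.45 over S-phase genes (19 of 22 higher), 0.52 over mitotic genes (20 of 22 higher) and 0.01 over all genes. For 7 of the 47 genes, and for 3.84% of all genes tested, the GRKO and parental GC tumors did not overlap. Plk1, named here for its DESeq2 call after its values were seen, was at 150.3 to 275 CPM in GRKO against 83.5 to 157 CPM in parental GC tumors. A single GRKO tumor, replicate 3, lay inside the parental range, and the log2 fold change was 0.76 (SE 0.21, edgeR adjusted p = 0.105). With the lincRNA covariate 1 gene passed, the S and mitotic cyclin Ccna2, and without the 6 tumors 0 did. Without tumors 2 and 4 of both GC groups 0 passed, with medians of 0.41 over S-phase, 0.51 over mitotic and 0.02 over all genes. With the replicate number as a block 1 gene passed, Bub1b.

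**Figure D3:**
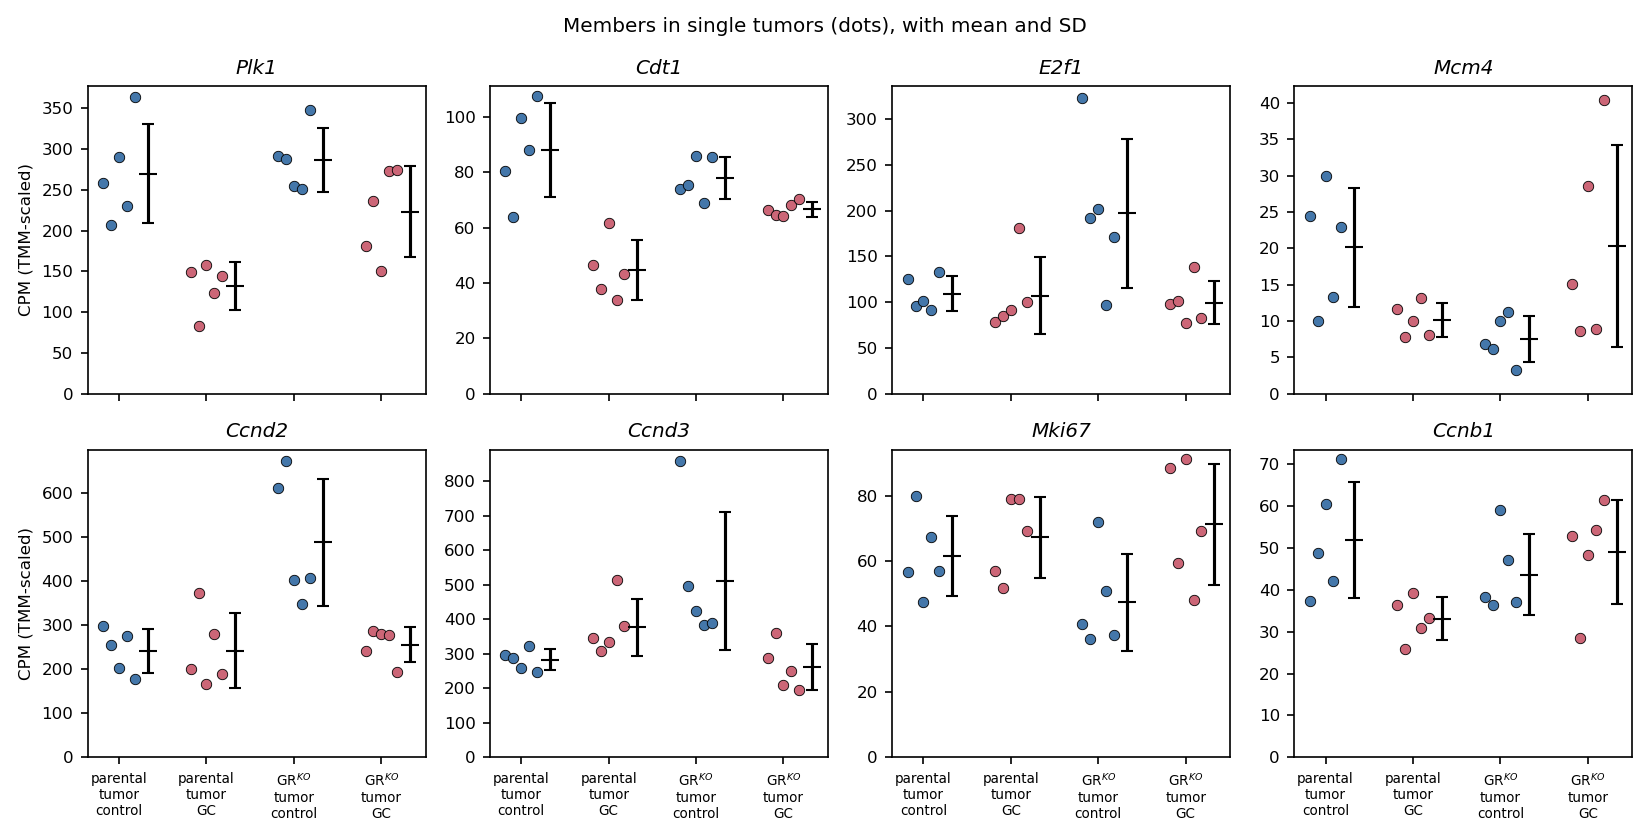
Level in each of the 20 tumors (dots) of the genes called in a comparison between tumor groups and of Mki67 and Ccnb1, in CPM by group, with the mean and SD of each group. For Plk1 and Cdt1 every parental GC tumor lies below every parental control tumor.

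Mki67, Mcm5, Ccnb1 and Ccnd1 were followed in every comparison whatever their result. Mki67, which coats mitotic chromosomes and is the standard proliferation marker, was at 56.5, 79.7, 47.6, 67.2 and 56.9 CPM in parental control and 57.01, 51.9, 78.9, 78.99 and 69.2 CPM in parental GC tumors. In GRKO tumors it was at 40.8, 36.02, 71.8, 50.9 and 37.4 CPM under control cream and 88.5, 59.5, 91.1, 48.1 and 69.1 CPM under GC. The groups overlapped in both genotypes. Its log2 fold change with GC was 0.13 (SE 0.22, edgeR adjusted p = 0.848) in parental and 0.59 (SE 0.22, edgeR adjusted p = 0.103) in GRKO tumors, and the difference between them was -0.46 (SE 0.31, edgeR adjusted p = 0.407). GRKO against parental tumors gave -0.38 (SE 0.22, edgeR adjusted p = 0.339) under control cream and 0.08 (SE 0.22, edgeR adjusted p = 0.914) under GC. The GRKO log2 fold change with GC passed without GRKO control tumor 3 (0.79), without GC tumors 2 and 4 of both genotypes (0.81) and by library size alone (0.84).

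Mcm5, a subunit of the replicative helicase, was at 109.6, 80.3, 102, 77.4 and 116 CPM in parental control and 58.2, 88.5, 62.2, 134 and 57.9 CPM in parental GC tumors. GRKO tumors had 192, 156, 165, 74.8 and 154 CPM under control cream and 70.3, 89.05, 64.96, 115 and 78.01 CPM under GC. The groups overlapped because GRKO control tumor 4, the lowest control, lay inside the GC range. With GC the log2 fold change was -0.28 (SE 0.25, edgeR adjusted p = 0.665) in parental and -0.83 (SE 0.25, edgeR adjusted p = 0.0508) in GRKO tumors, with a difference of 0.55 (SE 0.36, edgeR adjusted p = 0.389). DESeq2 called Mcm5 in GRKO tumors, and edgeR did so without GRKO control tumor 4 (-0.99), GRKO GC tumor 4 (-0.97) or GC tumors 2 and 4 of both genotypes (-1.06). Between genotypes the values were 0.61 (SE 0.25, edgeR adjusted p = 0.183) under control cream, where it passed without GRKO control tumor 4 (0.78), and 0.06 (SE 0.25, edgeR adjusted p = 0.955) under GC.

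Ccnb1, the cyclin that activates Cdk1 at mitotic entry, was at 37.3, 48.8, 60.5, 42.2 and 71.2 CPM in parental control and 36.3, 25.96, 39.2, 30.8 and 33.4 CPM in parental GC tumors, where GC tumor 3 reached into the control range. In GRKO tumors the levels were 38.3, 36.4, 59.2, 47.2 and 37.1 CPM and 52.97, 28.5, 48.3, 54.3 and 61.4 CPM, with full overlap. Its log2 fold change with GC was -0.65 (SE 0.22, edgeR adjusted p = 0.183) in parental and 0.17 (SE 0.22, edgeR adjusted p = 0.673) in GRKO tumors, and their difference was -0.82 (SE 0.31, edgeR adjusted p = 0.156). GRKO against parental tumors gave -0.25 (SE 0.22, edgeR adjusted p = 0.533) under control cream and 0.57 (SE 0.22, edgeR adjusted p = 0.321) under GC.

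Ccnd1, the D-type cyclin most often amplified in melanoma, was at 786, 524, 562, 865 and 736 CPM in parental control and 633, 725, 714, 514 and 590.3 CPM in parental GC tumors. It was at 1095, 806, 660.1, 616 and 920.3 CPM in GRKO control and 799, 543, 728, 722 and 820.0 CPM in GRKO GC tumors. All 4 groups overlapped. The log2 fold change with GC was -0.13 (SE 0.19, edgeR adjusted p = 0.819) in parental and -0.18 (SE 0.19, edgeR adjusted p = 0.598) in GRKO tumors, with a difference of 0.05 (SE 0.28, edgeR adjusted p = 0.938). Between genotypes it was 0.24 (SE 0.20, edgeR adjusted p = 0.507) under control cream and 0.19 (SE 0.19, edgeR adjusted p = 0.759) under GC. The other D-type cyclins were not called with GC in parental tumors, where Ccnd2 was at 200.3, 373, 167, 280.5 and 188 CPM and Ccnd3 at 345, 307, 333, 514 and 380.5 CPM.

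Markers of host cells moved with these tumor groups. The fibroblast sum (Col1a1, Col1a2, Col3a1, Dcn, Lum and Pdgfra; Col3a1 most abundant) was 6637, 7299, 6834, 7352 and 6975 CPM in parental control, 10620.0, 8246, 10610.0, 7662 and 10650.0 CPM in parental GC, 3560.0, 3885, 4449, 6481 and 5025 CPM in GRKO control and 9856, 8036, 11230.0, 7261 and 11040.0 CPM in GRKO GC tumors. It was higher under GC in both genotypes, and 4 of the 6 markers rose in GRKO tumors (the most Col1a2, by a log2 of 1.83, SE 0.30, Pdgfra by 1.17, SE 0.32, and Col3a1 by 1.03, SE 0.22). The leukocyte sum (Ptprc, Coro1a and Laptm5; Laptm5 most abundant) was 647, 595, 519, 687 and 625 CPM in parental control, 541, 518, 364, 663 and 451 CPM in parental GC, 1912, 1055, 1011, 773 and 894 CPM in GRKO control and 529.6, 539, 456, 430.1 and 462 CPM in GRKO GC tumors, highest in GRKO control tumor 1, the tumor that also had the highest Ccnd3. Leukocytes divide and express D-type cyclins too. The sum of 10 T and natural killer cell markers (Cd2 most abundant) was 199.9, 165, 124, 188 and 105 CPM in parental control, 140.4, 114, 69.7, 139 and 109 CPM in parental GC, 242, 249, 182, 339 and 163 CPM in GRKO control and 92.8, 145, 120.1, 78.3 and 78.8 CPM in GRKO GC tumors.

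The neutrophil sum (5 markers, S100a8 most abundant) was 22.7, 67.5, 244, 32.9 and 1277 CPM in parental control and 14.6, 10.1, 11.1, 22.6 and 38.8 CPM in parental GC tumors, where S100a9 fell by a log2 of 5.03 (SE 0.98) and S100a8 by 3.96 (SE 0.94). It was 429.6, 786, 266, 178 and 1022 CPM in GRKO control and 97.7, 49.8, 229, 201 and 136 CPM in GRKO GC tumors. The endothelial sum (5 markers, Kdr most abundant) was 46.6 to 68.95 CPM in parental control, 19.4 to 35.95 CPM in parental GC, 85.6 to 104 CPM in GRKO control and 43.2 to 52.7 CPM in GRKO GC tumors, and the erythroid sum (5 markers, Hbb-bs most abundant) 69.3 to 164, 57.6 to 82.7, 153 to 256 and 35.9 to 93.01 CPM. Both were lowest in the GC groups and highest in GRKO control tumors. Group means were 1373, 1551, 1202 and 1439 CPM for 8 myeloid markers (Lyz2 most abundant) and 1922, 2113, 3090 and 1789 CPM for 6 keratinocyte markers (Krt14 most abundant), in the same order. No marker of these lists was at or under 3 counts in any tumor group. For 5 B and plasma cell markers, 1 to 3 of them at or under 3 counts by group, the means were 7.75, 7.82, 8.49 and 4.77 CPM, for 5 skeletal muscle markers 366.8, 373.8, 454.6 and 296.1 CPM, and for the melanocyte markers 60.6, 79.0, 51.6 and 52.5 CPM. The part of these cells in the levels of the 47 genes was not tested.

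In cultures, grown without a host, clobetasol went with no call by edgeR among the 47 genes in either genotype. In parental cultures 32 of the 47 were higher and 15 lower, with a median of 0.18 over S-phase genes, 0.18 over mitotic genes and 0.00 over all genes. By edgeR 0 of 47 passed in either direction, against 0.615% of all genes higher and 0.263% lower. At an unadjusted p under 0.05 edgeR had 1 of the 47, Ccnd1, and 8.48% of all genes, and DESeq2 called 1, also Ccnd1. Parental DMSO culture 2, with its low mitotic levels, carried part of these medians: without it the S-phase median was 0.08 and without parental GC culture 1 it was 0.06. In GRKO cultures 18 genes were higher and 29 lower, with medians of -0.04 over S-phase and -0.10 over mitotic genes and 0.02 over all genes. By edgeR 0 of 47 passed, against 0.0% of all genes in each direction, with 0 of the 47 and 1.89% of all genes at an unadjusted p under 0.05 and 0 by DESeq2. The difference, parental minus GRKO, was called for 0 of the 47 by edgeR and 0 by DESeq2, against 0.224% of all genes higher and 0.0719% lower, with 3 of the 47 and 8.58% of all genes at an unadjusted p under 0.05.

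Ccnd1 was at 1270.0, 1188 and 1485 CPM in parental DMSO and 2198 and 1787 CPM in parental GC cultures. It stood at 1841, 2063 and 1703 CPM in GRKO DMSO and 1995, 1773 and 1554 CPM in GRKO GC cultures. Both parental GC cultures were above the 3 parental DMSO cultures, while the GRKO groups overlapped. Of all genes tested, 27.8% did not overlap in the parental and 7.55% in the GRKO comparison, whose groups differ in size. For Ccnd1 the log2 fold change with GC was 0.60 (SE 0.16, edgeR adjusted p = 0.171) in parental and -0.08 (SE 0.15, edgeR adjusted p = 0.976) in GRKO cultures, with a difference of 0.68 (SE 0.22, edgeR adjusted p = 0.422), so that the parental value was not shown to differ from the GRKO value after adjustment. Mki67 was at 123, 108 and 116 CPM in parental DMSO, 95.9 and 108 CPM in parental GC, 99, 99.6 and 90.1 CPM in GRKO DMSO and 111, 97.7 and 93.7 CPM in GRKO GC cultures. Both parental GC cultures lay below every parental DMSO culture, GC culture 2 only narrowly, at 108.0 CPM against 108.3 CPM in DMSO culture 2. The log2 fold change of Mki67 was -0.19 (SE 0.13, edgeR adjusted p = 0.698) in parental and 0.07 (SE 0.12, edgeR adjusted p = 0.976) in GRKO cultures, with a difference of -0.25 (SE 0.17, edgeR adjusted p = 0.587).

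Mcm5 was at 134, 152 and 116 CPM in parental DMSO, 110.4 and 118 CPM in parental GC, 92.97, 91.8 and 112 CPM in GRKO DMSO and 93.4, 96.4 and 114 CPM in GRKO GC cultures. DMSO and GC cultures overlapped in both genotypes, and the log2 fold change was -0.23 (SE 0.16, edgeR adjusted p = 0.698) and 0.03 (SE 0.14, edgeR adjusted p = 0.985), with a difference of -0.26 (SE 0.21, edgeR adjusted p = 0.610). Ccnb1 was at 165, 119.8 and 175 CPM in parental DMSO, 169.8 and 168 CPM in parental GC, 164, 154 and 151 CPM in GRKO DMSO and 149, 128 and 107 CPM in GRKO GC cultures. Here parental DMSO culture 2 was the lowest parental value and GRKO GC culture 3 the lowest of all. The log2 fold change of Ccnb1 was 0.14 (SE 0.18, edgeR adjusted p = 0.784) and -0.29 (SE 0.16, edgeR adjusted p = 0.976), with a difference of 0.43 (SE 0.24, edgeR adjusted p = 0.576).

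GRKO and parental cultures differed in 273 genes higher and 757 lower in GRKO under DMSO, 2.18% and 6.04% of those tested, but by edgeR 0 of the 47 passed in either direction. With the lincRNA share as a covariate, 15 of all genes were higher and 72 lower, and 0 of the 47 passed. The cultures also differed in fibroblast markers, which summed to 283, 172 and 245 CPM in parental and 79.6, 85.2 and 70.4 CPM in GRKO DMSO cultures, where 1 and 2 of the 6 were at or under 3 counts over the group. Of 5 tested, 3 fell: Col1a1 by a log2 of 4.30 (SE 0.45), Col3a1 by 1.37 (SE 0.19) and Dcn. Under clobetasol 2 fell, Col1a1 by 4.00 (SE 0.47) and Col3a1 by 1.21 (SE 0.20). Whether the share of such cells or their expression differs, and its part in the levels of the 47 genes, was not tested. At an unadjusted p under 0.05 edgeR had 10 of the 47 and 24.3% of all genes, and DESeq2 called 1, E2f2. With no minimum fold 3 genes passed, beside 2.65% of all genes higher and 6.48% lower. They were all lower in GRKO and all under a fold of 1.5: E2f1 with a log2 fold change of -0.57 (SE 0.16, edgeR adjusted p = 0.0471), Plk1 with -0.55 (SE 0.15, edgeR adjusted p = 0.0369) and Ccnd2 with -0.53 (SE 0.14, edgeR adjusted p = 0.0341). These genes and E2f2 are named after their values were seen. E2f1 was at 198, 214 and 170.2 CPM in parental and 144, 104 and 143 CPM in GRKO DMSO cultures, without overlap. Plk1 was at 992, 770.4 and 968 CPM in parental and 663, 519.8 and 677 CPM in GRKO DMSO cultures, and these did not overlap. For 11 of the 47 genes, and for 32.6% of all genes tested, these groups did not overlap. Ccnd2 was at 462, 560.5 and 446 CPM in parental and 348, 319 and 351 CPM in GRKO DMSO cultures, so that it was lower in GRKO cultures and higher in GRKO control tumors than in their parental counterparts. E2f2, an activating E2F factor, was at 26.4, 34.1 and 22.7 CPM in parental and 12.3, 11.8 and 21.2 CPM in GRKO DMSO cultures, with a log2 fold change of -0.88 (SE 0.27, edgeR adjusted p = 0.0650). The median was 0.01 over S-phase, 0.03 over mitotic and 0.01 over all genes, with 27 of the 47 higher and 20 lower. The count of genes called was 1 without parental DMSO culture 2, 2 without parental DMSO culture 3 and 1 without GRKO DMSO culture 3, and 1 without the filter on low counts.

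For the genes followed throughout, the log2 fold change of GRKO over parental DMSO cultures was -0.27 (SE 0.12, edgeR adjusted p = 0.181) for Mki67 and -0.44 (SE 0.14, edgeR adjusted p = 0.0771) for Mcm5. It was 0.03 (SE 0.16, edgeR adjusted p = 0.937) for Ccnb1 and 0.51 (SE 0.15, edgeR adjusted p = 0.0542) for Ccnd1, whose 3 GRKO DMSO cultures lay above the 3 parental ones. Under clobetasol, GRKO against parental cultures gave 16 of the 47 genes higher and 31 lower, with medians of -0.12 over S-phase, -0.27 over mitotic and 0.02 over all genes. By edgeR 0 of the 47 passed, against 1.76% of all genes higher and 3.78% lower (221 and 474 genes, or 34 and 115 with the lincRNA covariate, where 0 of the 47 passed), with 9 of the 47 and 17.7% of all genes at an unadjusted p under 0.05 and 0 by DESeq2. In this comparison the values were -0.02 (SE 0.13, edgeR adjusted p = 0.969) for Mki67 and -0.18 (SE 0.16, edgeR adjusted p = 0.643) for Mcm5. They were -0.40 (SE 0.18, edgeR adjusted p = 0.259) for Ccnb1 and -0.17 (SE 0.16, edgeR adjusted p = 0.685) for Ccnd1.

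Tumors had lower levels of nearly all of the 47 genes than cultures of the same cells. In parental samples, control tumors against DMSO cultures, 45 of 47 genes were lower: 1 rose, Cdt1, and 34 fell, against 30.4% of all genes higher and 16.2% lower. In GRKO samples 41 of 47 were lower: 3 rose, Cdt1, E2f2 and Ccnd3, and 34 fell, against 34.2% higher and 20.6% lower. The fallen genes were 14 S-phase, 18 mitotic and 2 D-type cyclin genes in parental, and 12, 21 and 1 in GRKO samples. Medians were -0.996 over S-phase and -1.08 over mitotic genes in parental and -0.79 and -1.60 in GRKO samples, against 0.37 and 0.33 over all 16273 genes. Library size alone moved these last values to 0.49 and 0.15. Tumors contain host cells and were collected as another experiment, so that growth in the animal, host RNA and experiment cannot be told apart. Whether this difference itself differs between parental and GRKO samples was not tested. Leukocyte markers, at 519.3 to 1912 CPM in control tumors, were at 0.143 to 0.623 CPM in DMSO cultures.

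On the scaling of all 31 libraries, Cdc6, which loads the helicase with Cdt1, was at 3.47, 7.55, 6.44, 1.63 and 8.90 CPM in parental control tumors against 43.9, 32.3 and 47.4 CPM in parental DMSO cultures. In GRKO samples it was at 1.73, 2.45, 10.7, 4.57 and 4.08 against 39.3, 34.5 and 38.5 CPM. No tumor reached a culture, and the log2 fold change was -2.87 (SE 0.44, edgeR adjusted p = 2.58e-06) in parental and -2.99 (SE 0.44, edgeR adjusted p = 1.10e-06) in GRKO samples. Gins2, a part of the replicative helicase, was at 5.62, 4.99, 2.62, 4.46 and 7.28 against 36.1, 14.7 and 34.8 CPM in parental samples. It was at 10.2, 1.69, 4.61, 3.43 and 7.80 against 40.7, 48.98 and 33.1 CPM in GRKO samples, with parental DMSO culture 2 the lowest culture. For Gins2 the log2 fold change was -2.51 (SE 0.43, edgeR adjusted p = 1.41e-05) in parental and -2.89 (SE 0.43, edgeR adjusted p = 1.32e-06) in GRKO samples. Rrm2, the regulated subunit of ribonucleotide reductase, was at 19.6, 17.5, 25.5, 19.6 and 39.7 against 125, 108 and 148 CPM in parental and 9.52, 22.9, 21.3, 25.99 and 21.3 against 120.5, 123 and 115 CPM in GRKO samples. These sets were far apart, with a log2 fold change of -2.38 (SE 0.25, edgeR adjusted p = 3.31e-09) and -2.56 (SE 0.25, edgeR adjusted p = 5.42e-10).

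Mybl2, the E2F target that encodes B-MYB, was at 1.89, 2.13, 1.71, 3.59 and 4.25 CPM in parental control tumors and 11.2, 16.8 and 14.1 CPM in parental DMSO cultures, without overlap, and its log2 fold change was -2.36 (SE 0.39, edgeR adjusted p = 1.04e-05). In GRKO control tumors it was at 5.77, 10.8, 3.46, 3.84 and 16.5 CPM, with tumor 5 above the GRKO cultures at 9.54, 11.9 and 13.1 CPM. Cdk1 was at 9.53, 19.2, 34.4, 23.8 and 85.1 against 196, 31.4 and 259 CPM in parental and 8.30, 5.02, 20.4, 33.4 and 14.4 against 290.1, 356 and 191 CPM in GRKO samples. Parental tumors 3 and 5 were above parental DMSO culture 2, so these groups overlapped. The log2 fold change of Cdk1 was -2.23 (SE 0.76, edgeR adjusted p = 0.0158) in parental and -4.09 (SE 0.80, edgeR adjusted p = 6.69e-05) in GRKO samples. Without parental DMSO culture 3 the parental value, -1.72, did not pass, and without the tumors of high lincRNA share the GRKO value, -3.12 from 1 tumor, did not.

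Kif20a, a kinesin of cytokinesis, was at 3.41, 4.60, 7.54, 7.56 and 12.6 against 38.8, 12.8 and 46.9 CPM in parental samples, close together only at DMSO culture 2. In GRKO samples it was at 0.794, 5.02, 8.54, 2.98 and 3.29 against 36.9, 46.97 and 29.8 CPM. For Kif20a the log2 fold change was -2.19 (SE 0.57, edgeR adjusted p = 0.00191) and -3.20 (SE 0.58, edgeR adjusted p = 2.74e-05). The checkpoint kinase gene Bub1 was at 3.03, 2.16, 3.59, 6.37 and 2.87 CPM in GRKO tumors and 22.6, 28.5 and 14.6 CPM in GRKO cultures, without overlap and with a log2 fold change of -2.60 (SE 0.34, edgeR adjusted p = 1.58e-07). Mki67 was at 56.03, 80.4, 46.5, 67.5 and 55.1 against 126, 110.4 and 118 CPM in parental and 40.1, 35.2, 71.2, 53.8 and 37.1 against 103, 102 and 91.5 CPM in GRKO samples. Its tumors all lay below its cultures, with a log2 fold change of -0.95 (SE 0.22, edgeR adjusted p = 0.000658) and -1.06 (SE 0.22, edgeR adjusted p = 0.000162). Ccnb1 gave -1.61 (SE 0.22, edgeR adjusted p = 3.81e-07) and -1.87 (SE 0.22, edgeR adjusted p = 1.68e-08), from 36.97, 49.2, 59.1, 42.4 and 68.9 against 169, 122 and 179 CPM and from 37.7, 35.6, 58.7, 49.9 and 36.8 against 170.3, 158 and 153 CPM. Ccnd1 gave -0.96 (SE 0.19, edgeR adjusted p = 0.000102) and -1.23 (SE 0.19, edgeR adjusted p = 2.17e-06), from 779, 529, 549.9, 869.6 and 712 against 1297, 1210.0 and 1513 CPM and from 1078, 788, 655, 651 and 913 against 1911, 2119 and 1728 CPM, all tumors below all cultures.

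The genes that went the other way were few. Cdt1 was at 79.9, 64.5, 97.4, 88.4 and 104 CPM in parental control tumors and 56.7, 48.2 and 56.4 CPM in parental DMSO cultures. In GRKO samples it was at 72.95, 73.6, 85.1, 72.8 and 84.8 and 42.6, 50.6 and 45.5 CPM. Every control tumor was above every DMSO culture of its genotype. The log2 fold change was 0.69 (SE 0.18, edgeR adjusted p = 0.00163) in parental samples, where it did not pass without parental control tumor 5 (0.57), and 0.75 (SE 0.18, edgeR adjusted p = 0.000593) in GRKO samples, where it did not pass by library size alone (0.57) or without the tumors of high lincRNA share (0.60). Ccnd3 rose in GRKO samples, from 245, 214 and 313 CPM in cultures to 845, 484, 422, 406 and 386 CPM in tumors, with a log2 fold change of 0.98 (SE 0.24, edgeR adjusted p = 0.000877), and did not pass without the tumors of high lincRNA share (0.60). E2f2 was at 12.8, 12.2 and 21.5 CPM in GRKO cultures and 21, 22.1, 19.99, 42.7 and 26.9 CPM in GRKO tumors, overlapping, with a log2 fold change of 0.78 (SE 0.27, edgeR adjusted p = 0.0163). It did not pass without GRKO control tumor 4 (0.52), GRKO DMSO culture 1 (0.66) or GRKO DMSO culture 2 (0.60), nor by library size alone (0.64). Mcm5 was at 109, 81.04, 99.8, 77.8 and 113 against 137, 155 and 119 CPM in parental samples, all tumors below the cultures, with -0.51 (SE 0.24, edgeR adjusted p = 0.0819). In GRKO samples it was at 189, 153, 164, 79.04 and 153 against 96.5, 94.3 and 114 CPM, where tumor 4 was below the cultures and the others above, with 0.54 (SE 0.25, edgeR adjusted p = 0.0679). There it passed without GRKO control tumor 4 (0.68), and stood at -0.42 when that tumor alone was kept.

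How the 47 genes varied together was described within groups, after subtracting group means from log2 levels. Among the 20 tumors the median correlation was 0.02 over the 231 pairs of S-phase genes, 0.18 over the 231 pairs of mitotic genes and 0.12 over the 484 mixed pairs. The points share libraries, depth and composition, so these are descriptions only. Cdk1 (0.95), Ccnb2 (0.94), Bub1b (0.80) and Kif20a (0.79) followed the mean of the other mitotic genes most closely. Ccnd2 (-0.87), the decatenating topoisomerase Top2a (-0.68), Ccne2 (-0.59), Ccnd3 (-0.57) and Mcm5 (-0.51) ran against it. With the log2 of the lincRNA share the correlation was lowest for the ubiquitin conjugase Ube2c (-0.756), Bub1 (-0.715), Ccna2 (-0.712) and Cdk1 (-0.677), and highest for Top2a (0.751), Mcm3 (0.680) and Mcm5 (0.634). Among the 11 cultures the medians were 0.04, 0.30 and 0.23, and Cdk1 (0.997), Ube2c (0.991), Kif20a (0.990) and Gins2 (0.981) followed the mitotic mean while Ccnd2 (-0.984), Ccne2 (-0.942) and Mcm5 (-0.865) ran against it.

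Other cell-cycle genes were read from 3 further lists. Of 30 other S-phase and 30 other mitotic genes, edgeR called 0 and 0 with GC in parental tumors (3 and 8 at an unadjusted p under 0.05, 0 and 2 by DESeq2), with medians of 0.00 and -0.24. Among all genes tested 2.71% rose and 3.71% fell with GC in GRKO tumors. There GC went with a rise of 3 other mitotic genes and a fall of 1, and a fall of 1 other S-phase gene. The condensin gene Smc4 was at 84.7, 90.7, 90.95, 150.1 and 141 CPM in control and 259, 216, 342, 185 and 256 CPM in GC tumors, without overlap, with a log2 fold change of 1.17 (SE 0.21, edgeR adjusted p = 0.00294). Hmmr, a spindle assembly gene, was at 11.1, 16.7, 6.36, 13.3 and 9.03 and 32.2, 10.1, 27.1, 19.2 and 33.6 CPM, with GC tumor 2 inside the control range and a change of 1.11 (SE 0.29, edgeR adjusted p = 0.0250). The kinetochore gene Ndc80 was at 10.4, 9.86, 9.498, 14.5 and 11.98 and 18.9, 19.7, 25.7, 13.6 and 21.1 CPM, with GC tumor 4 inside the control range and a change of 0.81 (SE 0.25, edgeR adjusted p = 0.0487). Mcm10, which helps to fire origins, was at 26.9, 30.7, 17.4, 13.8 and 28.6 and 12.1, 14.2, 12.9, 7.57 and 16.1 CPM, overlapping, with -0.90 (SE 0.25, edgeR adjusted p = 0.0313). Between control tumors of the genotypes Smc4 was at 202, 265, 178, 235 and 166 CPM in parental tumors, above all GRKO tumors, with -0.91 (SE 0.21, edgeR adjusted p = 0.0289).

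The last list held 25 regulators and inhibitors, 24 of them tested in tumors. The CDK inhibitor gene Cdkn1a, a p53 target, was at 141, 106, 137, 99.7 and 152 CPM in parental control, 118, 136, 114, 207 and 131 CPM in parental GC, 258, 316, 282, 206 and 234 CPM in GRKO control and 106, 146, 126, 185 and 141 CPM in GRKO GC tumors. All GRKO control tumors were above the other control and GC tumors but for parental GC tumor 4. Its log2 fold change was -0.88 (SE 0.20, edgeR adjusted p = 0.0124) with GC in GRKO tumors and 1.03 (SE 0.20, edgeR adjusted p = 0.0136) between genotypes under control cream. In the difference of GC effects, and between genotypes under GC, edgeR called 0 genes of the 3 lists (20 and 12 at an unadjusted p under 0.05, 5 and 0 by DESeq2). With GC in cultures of either genotype, in the difference between them and between genotypes under clobetasol the count was 0 as well (1, 2, 7 and 6 at an unadjusted p under 0.05, 0, 0, 0 and 2 by DESeq2). Between DMSO cultures 3 genes fell in GRKO: the MuvB subunit Lin37, at 12.04, 13.1 and 9.22 against 6.34, 5.63 and 6.62 CPM with -0.89 (SE 0.20, edgeR adjusted p = 0.0191), the kinetochore gene Nuf2, at 67.8, 75.8 and 62.8 against 47.8, 40.3 and 47.97 CPM with -0.60 (SE 0.15, edgeR adjusted p = 0.0279), and the cytokinesis gene Racgap1, at 260.1, 262 and 231 against 165, 164 and 169.5 CPM with -0.59 (SE 0.11, edgeR adjusted p = 0.00483). Parental and GRKO cultures did not overlap for any of them, nor for 32.6% of all genes tested. Of all genes tested, 2.18% were called higher and 6.04% lower in this comparison.

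In tumors against cultures, 17 of 30 other S-phase genes fell and 1 rose in parental samples and 16 fell and 1 rose in GRKO samples. Of 30 other mitotic genes 22 fell and 0 rose (0 by edgeR) in parental samples, with 23 at an unadjusted p under 0.05 and 22 called by DESeq2, and 21 fell and 1 rose in GRKO samples. Among other S-phase genes the largest falls in parental samples were those of the checkpoint mediator Clspn (-2.41, SE 0.26, edgeR adjusted p = 3.94e-09), the single-strand DNA binding gene Rpa2 (-2.09, SE 0.25, edgeR adjusted p = 4.41e-08) and the origin recognition gene Orc6 (-2.05, SE 0.59, edgeR adjusted p = 0.00487). In GRKO samples they were those of Orc6 (-3.26, SE 0.61, edgeR adjusted p = 3.73e-05), the primase gene Prim1 (-2.42, SE 0.35, edgeR adjusted p = 7.41e-07) and Clspn (-2.27, SE 0.26, edgeR adjusted p = 8.58e-09). Among other mitotic genes they were Psrc1 (-2.94, SE 0.53, edgeR adjusted p = 3.24e-05), Ckap2l (-2.46, SE 0.27, edgeR adjusted p = 6.97e-09) and the phosphatase Cdc25c (-2.45, SE 0.48, edgeR adjusted p = 9.55e-05) in parental, and Gtse1 (-4.40, SE 1.11, edgeR adjusted p = 0.00125), Ckap2l (-3.02, SE 0.27, edgeR adjusted p = 9.84e-11) and Cks2 (-2.97, SE 0.87, edgeR adjusted p = 0.00462) in GRKO samples. Of 24 regulators 6 rose and 2 fell in parental and 6 rose and 11 fell in GRKO samples. Of all genes tested, 30.4% rose and 16.2% fell in parental samples, and 34.2% and 20.6% in GRKO samples. Rb1, which encodes RB, was at 17, 17.5, 38.3, 24.6 and 26.3 CPM in parental control tumors and 7.68, 2.77 and 6.35 CPM in DMSO cultures, with 2.10 (SE 0.39, edgeR adjusted p = 4.40e-05). The CDK inhibitor genes Cdkn2a and Cdkn2b had 0 counts in all 11 cultures, so no fold is given, and at most 22 and 41 counts in a control tumor. Cdkn1c, another inhibitor gene, had at most 9 counts in a DMSO culture and 13 to 227 counts in a control tumor.

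Promoter sequences were looked at because many mitotic genes are switched on through shared elements. Windows of 300 bases, from 250 before to 50 after the transcript start, were taken from RefSeq (GRCm38.p6) for 37 of the 47 genes, 33 with 1 window and 4 with 2. Ccne2, Mcm4, Gins2, Ccna2, Foxm1, Aurkb, Kif20a, Tpx2, Ccnd1 and Ccnd2 had none there. On either strand, E2F letters (TTTGGCGC, or the same with CC in place of GG) stood in 8 of 22 windows of S-phase genes (36.4%), 0 of 17 windows of mitotic genes (0.0%) and 1.57% of all 32851 windows. CHR letters (TTTGAA or TTTAAA) stood in 8 of 22 (36.4%), 15 of 17 (88.2%) and 27.6%, and CCAAT in 16 of 22 (72.7%), 15 of 17 (88.2%) and 37.4%. Windows with both CHR letters and CCAAT made up 7 of 22 (31.8%), 14 of 17 (82.4%) and 10.7%. A match is a description of the sequence and not evidence that a factor binds.

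The windows of Plk1 and Cdt1 are shown because these genes fell with GC in parental tumors, and those of Ccnb1 and Mcm5 as the mitotic and S-phase genes followed in every comparison. They read 5′ to 3′ along the gene, with the letters named above in capitals, on either strand. Plk1 lies at chr7:122159185-122159484 on the plus strand, with 3 CHR matches and 1 CCAAT. Cdt1 lies at chr8:122567765-122568064 on the plus strand, with 1 E2F match and no CHR or CCAAT. Ccnb1 lies at chr13:100786437-100786736 on the minus strand, with 1 CHR match and 2 CCAAT. Mcm5 lies at chr8:75109259-75109558 on the plus strand, with 1 E2F match, 1 CHR match and 3 CCAAT.
Plk1: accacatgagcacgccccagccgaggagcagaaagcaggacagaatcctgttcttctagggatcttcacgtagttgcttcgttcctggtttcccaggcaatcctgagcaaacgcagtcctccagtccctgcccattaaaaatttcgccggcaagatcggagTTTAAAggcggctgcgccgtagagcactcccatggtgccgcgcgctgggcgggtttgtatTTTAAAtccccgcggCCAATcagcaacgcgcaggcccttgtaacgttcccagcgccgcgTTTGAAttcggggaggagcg
Cdt1: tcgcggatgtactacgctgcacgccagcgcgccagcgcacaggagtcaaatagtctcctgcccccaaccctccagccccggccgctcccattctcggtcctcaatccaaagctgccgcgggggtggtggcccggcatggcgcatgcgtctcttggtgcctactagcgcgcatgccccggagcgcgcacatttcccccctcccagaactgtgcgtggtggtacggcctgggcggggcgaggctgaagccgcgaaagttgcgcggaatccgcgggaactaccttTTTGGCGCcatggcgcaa
Ccnb1: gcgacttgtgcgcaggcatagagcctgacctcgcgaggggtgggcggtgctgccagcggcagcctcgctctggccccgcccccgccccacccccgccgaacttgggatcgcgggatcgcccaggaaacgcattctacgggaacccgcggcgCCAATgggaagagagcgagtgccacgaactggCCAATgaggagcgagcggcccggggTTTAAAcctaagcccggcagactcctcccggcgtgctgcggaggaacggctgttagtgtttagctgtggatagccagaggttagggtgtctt
Mcm5: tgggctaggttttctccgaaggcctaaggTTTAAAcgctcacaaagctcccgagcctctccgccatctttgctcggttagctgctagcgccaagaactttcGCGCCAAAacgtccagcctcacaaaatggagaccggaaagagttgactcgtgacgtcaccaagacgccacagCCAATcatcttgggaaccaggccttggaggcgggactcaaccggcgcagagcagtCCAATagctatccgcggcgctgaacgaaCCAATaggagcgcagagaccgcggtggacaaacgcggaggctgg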

How the data were processed

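The counts were made by the authors, per the labels, from QuantSeq 3′ FWD libraries read on a NovaSeq: reads were trimmed with Trim Galore 0.6.5, aligned to GRCm38 with STAR 2.6.1d and counted with featureCounts against Ensembl 75 (its version and strand setting are not stated), with FastQC 0.11.7 and MultiQC 1.4 for quality. From the deposited counts, 3 models were fitted in R 4.3.3 with edgeR 4.0.16 (quasi-likelihood, TMM): tumors, cultures, and all 31 libraries for tumors against cultures. Genes with at least 0.5 CPM in at least 3 samples were tested, and p-values were adjusted over them by the Benjamini-Hochberg method. DESeq2 1.42.0 was the second tool, with limma 3.58.1 loaded by edgeR. Genes at or above 3 counts are called detected. Code was tested on simulated data, in which edgeR recovered 76 of 87 genes changed by a log2 of 1 in the tumors and 53 of 90 in the cultures. False calls were 5.5% and 5.29% of edgeR's calls there and 10.9% and 9.73% of DESeq2's. The simulation gave every gene the same spread, changed only genes above a minimum count and held no outlying library. These shares therefore need not hold for the real samples.

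Members and lists were chosen with earlier results of these data known. The genes named are, in each comparison, those called among the 47, up to the 6 largest changes, and Mki67, Mcm5, Ccnb1 and Ccnd1, and of other lists those called, up to 3. Alternatives tried were DESeq2, its size factors in edgeR, library size alone, no filter, no minimum fold or a fold of 2, a replicate block, a fit of only the groups compared and each library left out. The lincRNA share as a covariate, the tumors over 5% left out, and GC tumors 2 and 4 of the parental group or of both genotypes left out were added after seeing the data.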

Additional observations from a re-analysis of the deposited data

Results flagged for a closer look

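Among 52 groups of 5 tumors looked at, over 13 genes, 2 held a sample far from the others by Dixon's ratio of gap to range, which passes its limit of 0.71 by chance in about 1 of 20 such groups. E2f1 stood at 180.7 CPM in parental GC tumor 4, against 78.8 to 99.9 CPM in the other 4. Ccnd3 stood at 858.1 CPM in GRKO control tumor 1, against 384 to 496 CPM in the other 4. That tumor also had the highest leukocyte marker sum, 1912 CPM, and a lincRNA share of 11.9%. Without it, Ccnd3 was at -0.70 with GC in GRKO tumors and at 0.58 between genotypes under control cream, and was called in neither. The cause of these values was not tested.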

How the results depend on the processing

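A called value turned direction in 0 cases. Of the counts of genes called, 177 stayed the same under an alternative, 20 grew and 28 shrank; of the class medians 382 stayed and 20 moved; of the values of named genes 1993 stayed, 14 gained a call and 117 lost one. Counts of calls that moved by more than 1.5 times were as follows, and the cause was not tested except where fewer samples or a stricter rule made them. GC in parental tumors, 2 called: 1 at a minimum fold of 2, 5 by DESeq2, 1 with only the groups compared, 5 with the lincRNA covariate, 0 without parental GC tumors 2 and 4, 0 without GC tumors 2 and 4 of both genotypes, and 1 to 2 with each library left out. GC in GRKO tumors, 4 called: 1 at a minimum fold of 2, 1 with only the groups compared, 0 with the covariate, 0 without the tumors over 5% lincRNA, 11 without GC tumors 2 and 4 of both genotypes, and 0 to 9 with each library left out; smaller moves were 5 by DESeq2 and 5 with its size factors in edgeR, which add Mcm5, and 5 by library size alone, which adds Mki67 and Cenpe and loses E2f1. Difference of these, 0 called: 4 by DESeq2, 2 with the replicate number as a block and 0 to 9 with each library left out. Genotypes under control cream, 2 called: 1 at a minimum fold of 2, 6 by DESeq2, 1 by library size alone, 1 with no filter, 1 with only the groups compared, 0 with the covariate, 0 without the tumors over 5%, and 0 to 8 with each library left out. Genotypes under GC, 0 called: 1 by DESeq2, 1 with the replicate number as a block and 1 with the covariate. GC in parental cultures, 0 called: 1 by DESeq2. Genotypes of DMSO cultures, 0 called: 3 with no minimum fold, 1 by DESeq2, 1 with no filter, and 0 to 2 with each library left out. Tumors against cultures had 33 to 35 calls in parental and 33 to 38 in GRKO samples with each library left out.

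By the labels the samples share a replicate number, and they were not treated as paired. Library names also give every culture the same date, with a letter A, B or C for its number. Every tumor shares a code there. Over 30 pairs of tumors of the same number the mean correlation of deviations from group means was 0.06 (-0.54 to 0.41, 16 over 0.1), against -0.01 over 120 pairs of other numbers. Between the GC groups of the 2 genotypes alone it was 0.29 over 5 pairs (0.0998 to 0.389, 4 over 0.1), against -0.06 over 20 pairs of other numbers, with 1 of 5 parental and 2 of 5 GRKO tumors closest to their own number. Between their control groups it was 0.12 over 5 pairs (-0.07 to 0.27, 4 over 0.1), against -0.03 over 20 pairs of other numbers. For the remaining pairs of tumor groups the same-number means were -0.08, -0.05, 0.02 and 0.05. Over 15 pairs of cultures of the same number the mean was 0.02 (-0.55 to 0.62, 6 over 0.1), against -0.01 over 30. With the replicate number as a block, counts were 3 for GC in parental tumors, 3 for GC in GRKO tumors (Mcm4 at 1.31 not called), 2 for their difference (Bub1b and Ccnd3), 2 for genotypes under control cream and 1 for genotypes under GC (Bub1b), and 0 in every culture comparison.

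Limits: mean chi-square per gene between 50 pairs of replicates ran from 8.60 to 435, far above counting error. Groups of 2 and 3 cultures leave little to estimate spread from, and several of the 47 genes were under 10 CPM in tumors. The lincRNA share moves with the GRKO control tumors and with the GRKO cultures, so fits with and without it cannot separate them.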
